A study of Homo sapiens with 19 samples.

Results

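A set of 8 receptor genes through which blood cells receive growth and positioning signals was examined for acetylation of lysine 27 on histone H3 (H3K27ac), a mark of active promoters and enhancers. The 8 genes, FLT3, KIT, CSF1R, CSF3R, CSF2RB, IL6R, IFNGR1 and CXCR4, were taken by name from GENCODE version 44 out of 20015 protein-coding genes on hg38. Chromatin immunoprecipitation with sequencing was used in 4 human leukaemia cell lines, and 1 broad peak list per line was analysed out of a series of 19 samples. HL-60, Molm13 and OCI-AML3 are acute myeloid leukaemia (AML) lines, and K562 is a chronic myelogenous leukaemia line derived from a blast crisis. HL-60 and Molm13 cells were untreated. OCI-AML3 and K562 cells had been transduced with dCas9-KRAB-mCherry, a catalytically dead Cas9 fused to a repressor domain, and with an empty single guide RNA (sgRNA) vector bearing a BFP reporter, and had been sorted for both fluorophores. All of them were grown in the same medium and precipitated with the same antibody. With 1 library per line there was no replicate check, so no test was run, and values are set side by side. Cell line and vector cannot be told apart as sources of a difference from HL-60 or Molm13, although OCI-AML3 and K562 carried the same constructs. Copy number of the loci in these lines was not measured here.

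FLT3, KIT and CSF1R encode receptor tyrosine kinases, which pair up when their ligand binds and phosphorylate each other. FLT3 acts in early progenitors, KIT in stem cells, mast cells and erythroid progenitors, and CSF1R in monocytes and macrophages. CSF3R is the receptor for granulocyte colony-stimulating factor. CSF2RB is the beta chain shared by the receptors for GM-CSF, interleukin 3 and interleukin 5. IL6R binds interleukin 6 and signals through the shared chain IL6ST, and IFNGR1 is the ligand-binding chain of the interferon gamma receptor. Such cytokine receptors have no kinase of their own and work through JAK kinases and STAT factors. CXCR4 is the G protein-coupled receptor for the chemokine CXCL12 and retains cells in the bone marrow.

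The lists held 35206 peaks in Molm13, 37606 in OCI-AML3, 20814 in HL-60 and 37484 in K562, and numbers of reads were not given in the lists. Each peak carries a fold enrichment over the background of its own list, averaged along the peak. Median fold enrichment differed between the lists (2.85 in K562, 3.60 in HL-60), so a peak is placed here by its percentile, its rank among the peaks of its own list from 0 to 100. Lineage markers matched the labels in part: a peak lay at the transcription start site (TSS) of 5 of 5 erythroid genes in K562 and of none in the AML lines. Of 6 granulocyte and monocyte genes, 6 had a TSS peak in Molm13, 6 in OCI-AML3, 5 in HL-60 and 2 in K562, where these were SPI1 and LYZ. The T cell genes CD3D and CD3E and the B cell gene MS4A1 had none in any line. Peaks come from whole cultures, so fewer cells with the mark and less of the mark per cell cannot be told apart.

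At their start sites, the receptor genes were marked in most AML lists and mostly unmarked in K562. A gene was counted as marked where a peak came within 500 bp of any annotated TSS. By that rule 7 of 8 genes were marked in Molm13, 7 in OCI-AML3, 6 in HL-60 and 2 in K562. Among all protein-coding genes the marked shares were 54.0% in Molm13, 57.7% in OCI-AML3, 44.7% in HL-60 and 56.0% in K562. In K562 the share of receptor genes was therefore below that of the genome, while in the AML lines it was above. FLT3, CSF2RB, IL6R and CXCR4 were marked in the 3 AML lines and not in K562, a combination found at 2.22% of all protein-coding genes. CSF1R was marked in Molm13 and OCI-AML3 (2.78% of all genes), and CSF3R in Molm13, OCI-AML3 and K562 (7.15%). KIT was marked in HL-60 alone (0.605%), and IFNGR1 was marked in every line (40.5%). A TSS peak in at least 1 AML line with none in K562 was seen at 6 of the 8 receptor genes and at 8.73% of all genes.

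**Figure D1:**
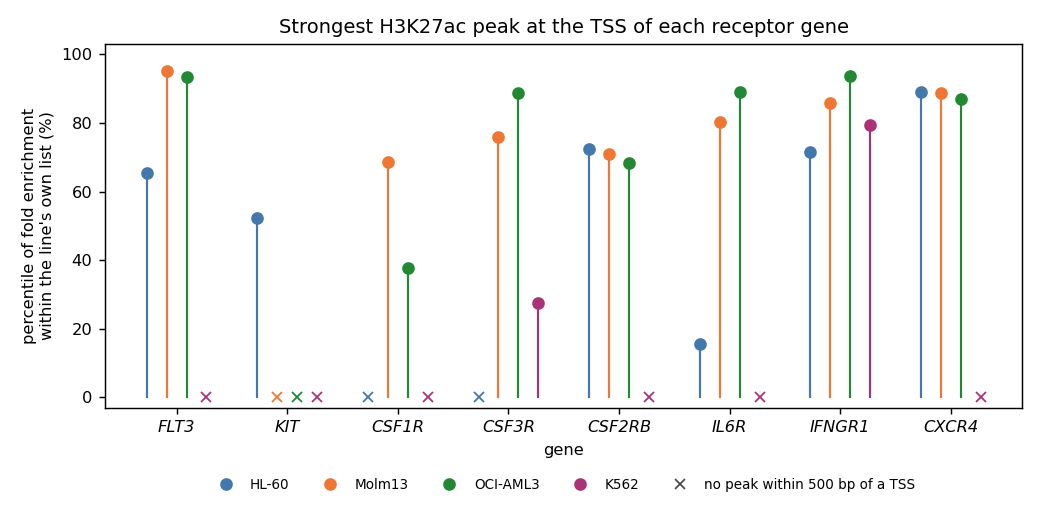
Percentile of fold enrichment (vertical axis, percent, within the list of the same line) of the strongest H3K27ac peak within 500 bp of a TSS of each gene (horizontal axis), with 1 library per line and crosses where no peak was listed. In K562 only CSF3R, at 27.4, and IFNGR1, at 79.3, have a peak, while CXCR4 stands between 87.1 and 88.9 in the 3 AML lines.

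FLT3 (ENSG00000122025) lies on the minus strand at chr13:28003274-28100592. Its promoter is shown because the TSS was marked in the AML lines and not in K562. The 150 bases, from RefSeq (GRCh38.p14), lie at chr13:28100593-28100742 on the minus strand and end just ahead of the longest annotated first exon. Capitals mark a match to GAGGAA, the core of many ETS factor sites, here on the opposite strand.
FLT3 promoter: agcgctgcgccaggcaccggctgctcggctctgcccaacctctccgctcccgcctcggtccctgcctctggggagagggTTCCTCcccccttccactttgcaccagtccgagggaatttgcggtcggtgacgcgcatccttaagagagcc

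In HL-60 the FLT3 TSS peak was 920 bp wide with a fold enrichment of 4.19, at percentile 65.4. Molm13 had a TSS peak of 11765 bp with a fold enrichment of 9.06, at percentile 95.0. OCI-AML3 had one of 12765 bp with a fold enrichment of 4.86, at percentile 93.3. The peaks of Molm13 and OCI-AML3 were thus among the widest of their lists, at width percentiles 99.5 and 99.4, whereas that of HL-60 was of middling width at 51.8. K562 had no peak in the FLT3 gene body, and the peak nearest to the FLT3 TSS began 36499 bp upstream. That peak, with a fold enrichment of 4.09 at percentile 91.3, lay over the TSS of the neighbouring gene PAN3, which was marked in all 4 lines.

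Further marks were strung along the FLT3 gene in the AML lines. Positions are given in kb from the canonical TSS, with upstream positions negative. A region at -10.0 to -4.51 kb was marked in all 3 AML lines, at percentiles 78.6 in Molm13, 76.9 in OCI-AML3 and 28.4 in HL-60. Within the gene, regions at 39.7 to 48.6 kb and at 62.5 to 71.6 kb were also marked in the 3 AML lines. In Molm13 and OCI-AML3 their percentiles were lower, at most 43.5 for the first and 68.3 for the second. In HL-60 their percentiles were higher than upstream, at 35.0 and 38.5. The gene body held 12 peaks in Molm13, 7 in OCI-AML3, 5 in HL-60 and 0 in K562, covering 39.0%, 29.8%, 6.47% and 0% of its bases. FLT3 was therefore the receptor tyrosine kinase gene with the largest share of its body under H3K27ac peaks in Molm13 and OCI-AML3.

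KIT (ENSG00000157404) lies on the plus strand at chr4:54657267-54740783. Its promoter is shown as the one whose canonical TSS had no peak in any of the 4 lines. The bases are those at chr4:54657739-54657888, from RefSeq, and capitals mark a match to the GC box GGGCGG.
KIT promoter: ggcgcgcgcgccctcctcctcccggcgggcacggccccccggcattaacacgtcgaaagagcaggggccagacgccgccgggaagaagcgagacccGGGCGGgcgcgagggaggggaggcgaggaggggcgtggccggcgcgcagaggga

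The TSS peak counted for KIT in HL-60 lay 0.721 to 1.58 kb downstream of the canonical TSS, at an alternative start. It was 857 bp wide with a fold enrichment of 3.67, at percentile 52.4, and was lost when peaks were limited to q-values below 0.001. KIT did not lack marks, since a region in an intron, 28.7 to 31.1 kb downstream of the TSS, had a peak in each AML line. That intronic peak had a fold enrichment of 4.69 in Molm13, 3.56 in OCI-AML3 and 4.35 in HL-60, at percentiles 67.6, 71.1 and 68.2. In K562 the whole KIT window held 1 peak, at -37.8 to -36.7 kb and percentile 19.4. The 200 bases at the centre of the intronic region, chr4:54687751-54687950, are printed from hg38 as the part of KIT marked in every AML line and not in K562.
KIT intronic region: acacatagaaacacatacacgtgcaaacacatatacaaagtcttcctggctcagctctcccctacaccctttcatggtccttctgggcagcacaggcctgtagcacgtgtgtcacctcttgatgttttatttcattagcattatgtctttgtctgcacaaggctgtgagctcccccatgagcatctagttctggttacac

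CSF1R (ENSG00000182578) lies on the minus strand at chr5:150053291-150113372, with its canonical TSS inside the gene because longer transcripts start further upstream. The bases at chr5:150086608-150086757, from RefSeq, are shown because the TSS was marked in Molm13 and OCI-AML3 and not in HL-60 or K562. Capitals mark TGTGGT, the core of RUNX sites. A pair of adjoining GAGGAA matches followed at -20 to -15 and -14 to -9, in bases that some transcripts include in their first exon.
CSF1R promoter: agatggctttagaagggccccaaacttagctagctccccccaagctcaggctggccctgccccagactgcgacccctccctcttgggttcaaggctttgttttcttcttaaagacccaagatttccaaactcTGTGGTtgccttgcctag

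Across the canonical CSF1R TSS, the Molm13 peak was 1033 bp wide with a fold enrichment of 4.77, at percentile 68.7. The OCI-AML3 peak was 3080 bp wide with a fold enrichment of 2.43, at percentile 14.3. Both lines thus had a peak over the same start, but the one in OCI-AML3 was broad and ranked low in its list. Its strongest peak near any CSF1R start lay far downstream, at 32.0 to 36.4 kb, with a fold enrichment of 2.73 at percentile 37.8. Both lines also had a peak shortly downstream of the canonical TSS, 2553 bp wide in Molm13 at percentile 66.9 and 2062 bp wide in OCI-AML3 at percentile 52.6. The gene body held 7 peaks in Molm13, 5 in OCI-AML3 and 0 in both HL-60 and K562. In HL-60 the nearest peak to the canonical TSS was 44510 bp away and in K562 35347 bp away. A region at -59.7 to -55.1 kb, inside the PDGFRB gene that lies upstream of CSF1R, was the only one around CSF1R with a peak in all 4 lines. PDGFRB, which encodes a related receptor tyrosine kinase, had a peak at 1 annotated start in Molm13 and OCI-AML3 and in neither of the others. That region, at -36.3 to -35.3 kb, stood at percentiles 72.8 and 11.6 and lay nearer to CSF1R than the region shared by all 4 lines. No line had a peak in the window further upstream than that shared region.

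**Figure D2:**
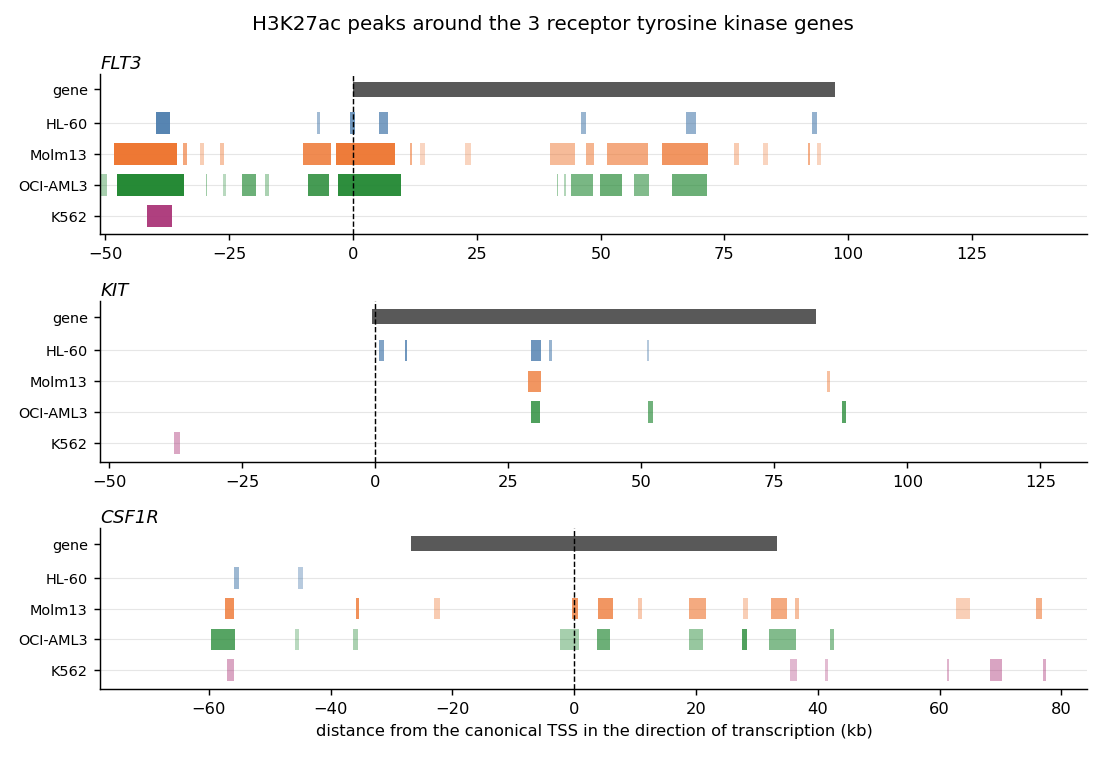
Position of every H3K27ac peak around FLT3, KIT and CSF1R, in kb from the canonical TSS (dashed line) in the direction of transcription, with 1 row per line, the gene body in grey, darker bars for higher percentiles of fold enrichment and peaks cut at the edge of the window. FLT3 shows long bars at and beyond the TSS in Molm13 and OCI-AML3 and only the PAN3 peak in K562, and KIT shows the shared bar at 28.7 to 31.1 kb in the 3 AML lines.

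CSF3R (ENSG00000119535) lies on the minus strand at chr1:36466043-36483278. Its TSS peak was 5047 bp wide with a fold enrichment of 5.44 in Molm13, at percentile 76.0. In OCI-AML3 it was 2020 bp wide with a fold enrichment of 4.47, at percentile 88.6. In K562 it was 906 bp wide with a fold enrichment of 2.59, at percentile 27.4, began 177 bp downstream of the canonical TSS and did not pass a q-value of 0.001. CSF3R was thus the receptor gene for which K562 was marked and HL-60 was not, with a weak peak in K562. HL-60 did have a peak a short way upstream, at -4.37 to -3.76 kb and percentile 64.4. It fell in a region at -4.96 to -2.55 kb that was marked in all 4 lines, with Molm13 at percentile 92.5, OCI-AML3 at 89.8 and K562 at 7.24. Among the regions away from any protein-coding TSS, this one had the highest percentiles summed over the lines of all those around the 8 genes. Its central 200 bases, chr1:36486569-36486768 on the minus strand of hg38, are printed here. The peaks of Molm13 and OCI-AML3 spanned these bases, that of HL-60 covered only part of them, and that of K562 lay outside them.
CSF3R upstream region: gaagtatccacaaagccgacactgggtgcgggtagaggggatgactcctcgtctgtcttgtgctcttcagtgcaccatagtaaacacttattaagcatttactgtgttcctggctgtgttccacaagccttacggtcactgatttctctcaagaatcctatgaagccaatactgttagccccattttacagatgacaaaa

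The other peak shared by all lines around CSF3R was at the start of MRPS15, a mitochondrial ribosomal protein gene, at percentiles from 82.8 in HL-60 to 98.7 in Molm13.

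CSF2RB (ENSG00000100368) lies on the plus strand at chr22:36913628-36940439. Its TSS peak had a fold enrichment of 4.96 in Molm13, 3.46 in OCI-AML3 and 4.59 in HL-60. The percentiles were alike, at 71.0, 68.3 and 72.3, and the widths were 418, 1265 and 806 bp, at width percentiles 15.1, 49.4 and 44.5. CSF2RB thus had a TSS peak of similar rank in the AML lines, narrow in Molm13 and of middling width in the others, and it was the sole peak in its gene body in each of them. K562 had no peak in the body, and its nearest peak lay 64071 bp from the TSS, beyond the end of the gene. Near the upstream edge of the window, the TSS of NCF4, which encodes a subunit of the phagocyte NADPH oxidase, was marked in the 3 AML lines, at percentiles from 93.7 to 96.9, and not in K562.

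IL6R (ENSG00000160712) lies on the plus strand at chr1:154405193-154469450. The bases at chr1:154405093-154405192, from RefSeq, are shown because the TSS was marked in the AML lines and not in K562, and capitals mark a GAGGAA match. They lie at -250 to -151 from the canonical TSS. Another GAGGAA match, on the opposite strand, lay at -6 to -1, in bases that some transcripts include in an exon and that are not printed.
IL6R promoter: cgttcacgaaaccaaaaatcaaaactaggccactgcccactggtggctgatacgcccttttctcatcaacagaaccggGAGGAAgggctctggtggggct

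The IL6R TSS peak was broad in each AML line, at 4389 bp in HL-60, 7481 bp in OCI-AML3 and 6135 bp in Molm13. Fold enrichment was 5.94 in Molm13, 4.49 in OCI-AML3 and 2.99 in HL-60, at percentiles 80.4, 89.0 and 15.5. The HL-60 peak was therefore wide, at width percentile 98.4, but of low fold enrichment, and it too was lost at q-values below 0.001. An intronic region was marked in Molm13 at 14.2 to 16.2 kb and in OCI-AML3 at 13.9 to 16.0 kb, and OCI-AML3 had 6 peaks in the gene body against 2 in Molm13 and 1 in HL-60. K562 had 2 body peaks, both far downstream of the TSS. The stronger of these was at 57.8 to 58.6 kb and percentile 79.2. The strongest K562 peak in the window was upstream, at -21.1 to -17.7 kb and percentile 83.2, where Molm13 and OCI-AML3 had short peaks at percentiles 51.5 and 1.22.

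IFNGR1 (ENSG00000027697) lies on the minus strand at chr6:137197483-137219449 and was the receptor gene marked at its TSS in all 4 lines. The TSS peak had a fold enrichment of 6.71 in Molm13, 4.89 in OCI-AML3, 4.56 in HL-60 and 3.56 in K562. Percentiles were 85.8, 93.7, 71.6 and 79.3, and widths were 7514, 2906, 718 and 4899 bp. A second mark lay directly upstream: HL-60 had a separate peak at -6.38 to -2.88 kb, OCI-AML3 at -7.73 to -2.35 kb and K562 at -6.97 to -2.74 kb. In Molm13 a single peak ran from -6.09 to 1.42 kb and took in both. K562 thus had the mark at IFNGR1 much as the AML lines had, and its gene body coverage there, 24.3%, exceeded the 3.27% of HL-60, 6.76% of Molm13 and 13.7% of OCI-AML3. Downstream of the gene, peaks at 62.9 to 65.0 kb in Molm13 and 62.4 to 64.9 kb in OCI-AML3 had no counterpart in HL-60 or K562.

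CXCR4 (ENSG00000121966) is a short gene on the minus strand at chr2:136114349-136119177. Its promoter, chr2:136118150-136118299 from RefSeq, is shown because CXCR4 was the gene with a strong TSS peak in every AML line and no peak in K562. Capitals mark 3 GC box matches, the first pair of which overlap, and 1 GAGGAA match, all on the opposite strand.
CXCR4 promoter: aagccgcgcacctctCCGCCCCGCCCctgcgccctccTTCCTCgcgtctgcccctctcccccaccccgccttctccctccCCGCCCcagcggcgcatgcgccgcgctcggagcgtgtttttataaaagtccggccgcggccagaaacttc

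The CXCR4 TSS peak had a fold enrichment of 7.22 in Molm13, 4.36 in OCI-AML3 and 6.39 in HL-60, at percentiles 88.6, 87.1 and 88.9. It was 3474, 7525 and 2686 bp wide and covered 61.2%, 100% and 55.2% of the gene body. Its percentiles were close across the AML lines, whereas in K562 no peak lay anywhere in the gene or within 50 kb of it. The K562 peak nearest to the CXCR4 TSS was 131845 bp away, so CXCR4 was the single receptor gene whose window was empty in a list.

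**Figure D3:**
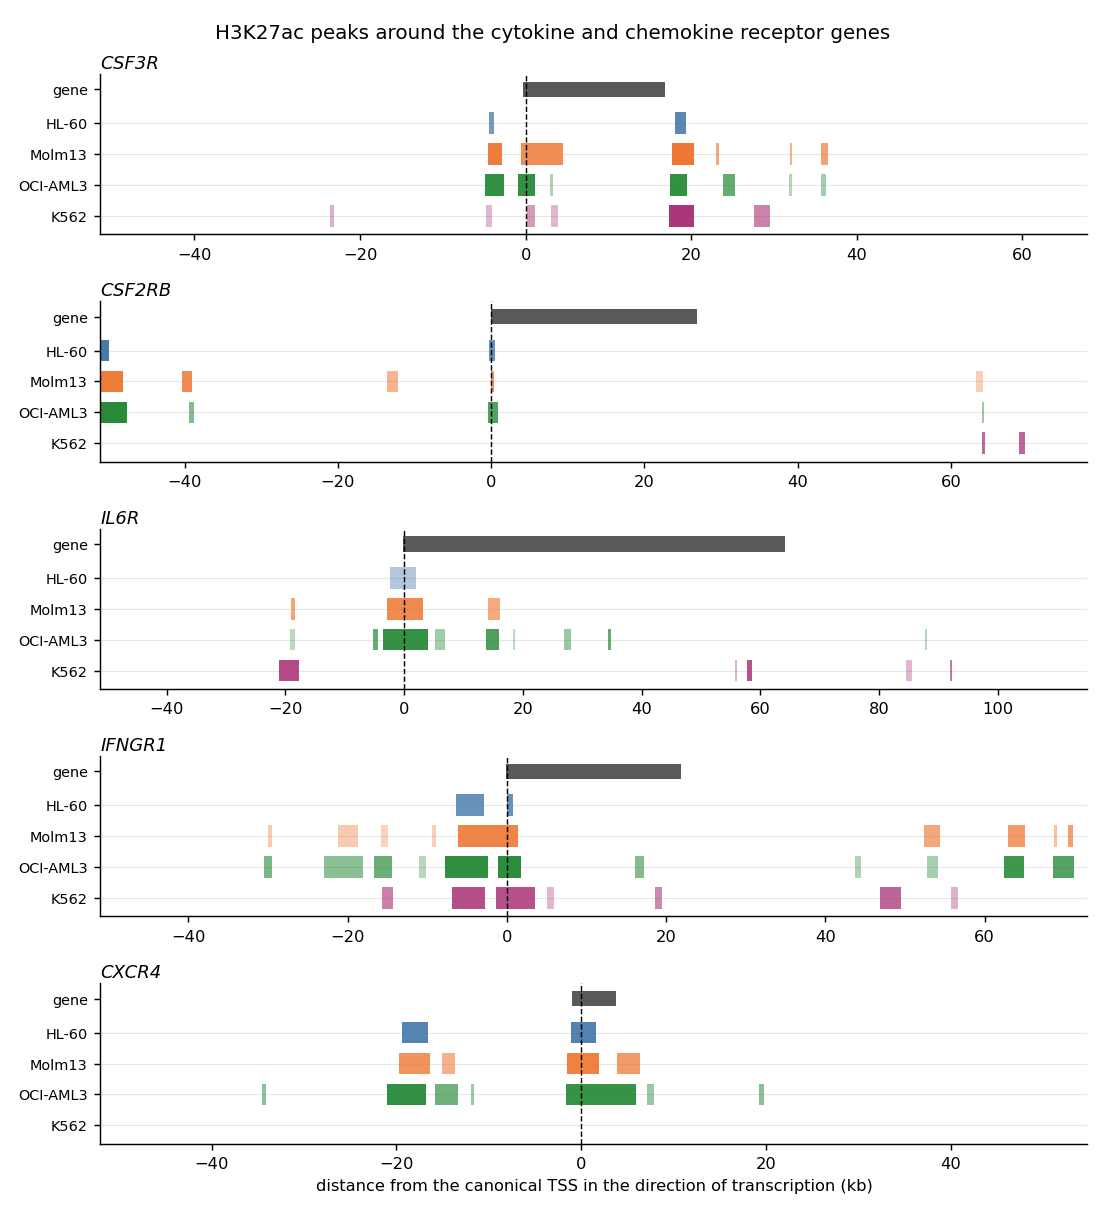
Position of every H3K27ac peak around CSF3R, CSF2RB, IL6R, IFNGR1 and CXCR4, drawn in kb from the canonical TSS (dashed line) in the direction of transcription, with the gene body in grey, darker bars for higher percentiles and peaks cut at the edge of the window. The K562 row is empty for CXCR4 and holds a TSS bar for CSF3R and IFNGR1, and the CSF3R row of HL-60 has a bar at -4.37 to -3.76 kb but none at the TSS.

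Over the gene bodies and 50 kb on each side, the 8 genes together held 58 peaks in Molm13, 64 in OCI-AML3, 23 in HL-60 and 28 in K562. Peaks covered 11.6%, 12.6%, 2.80% and 3.63% of these windows. K562 thus held little of the mark around these genes although its list covered the most of the genome, 76.8 Mb against 70.2 Mb in OCI-AML3, 58.2 Mb in Molm13 and 24.1 Mb in HL-60. The median receptor gene had 5304 bp covered in K562, below the 6422 bp of the median protein-coding gene. In the AML lines the order was the opposite, at 3990 against 1971 bp in HL-60, 10742 against 4614 bp in Molm13 and 15801 against 5429 bp in OCI-AML3. Peaks inside the gene body were found for 8 receptor genes in Molm13, 8 in OCI-AML3, 6 in HL-60 and 3 in K562, where 62.5%, 64.6%, 52.8% and 61.3% of all protein-coding genes had one. A peak anywhere in the window was less discriminating, at 8 genes in each AML line and 7 in K562 against 84.3% of all genes in Molm13 and OCI-AML3, 78.7% in HL-60 and 80.7% in K562.

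Gene by gene, window coverage as a percent of bases exceeded the median of protein-coding genes for 7 of 8 receptor genes in Molm13, 7 in OCI-AML3, 6 in HL-60 and 2 in K562. FLT3 stood highest, with 31.5% in Molm13 and 27.7% in OCI-AML3, above 99.5% and 99.0% of protein-coding genes, against 5.29% in HL-60 and 2.59% in K562. Part of this was the peak at the PAN3 start, 12795 of the 62165 bp covered in Molm13 and 13627 of 54593 bp in OCI-AML3. In K562 the PAN3 peak made up all 5103 bp. IFNGR1 came next in OCI-AML3, at 21.2%, followed by CXCR4 at 15.5%. KIT had the least in Molm13 and OCI-AML3, 1.63% and 1.78%, which was below the medians of 3.05% and 3.60%. The peaks in K562 were also of low rank, with a median fold percentile of 24.0 over its 28 window peaks, against 46.4 in Molm13, 40.6 in OCI-AML3 and 64.4 in HL-60. HL-60 had the fewest peaks around these genes, in the shortest of the lists, and their median rank was the highest of the 4 lines.

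**Figure D4:**
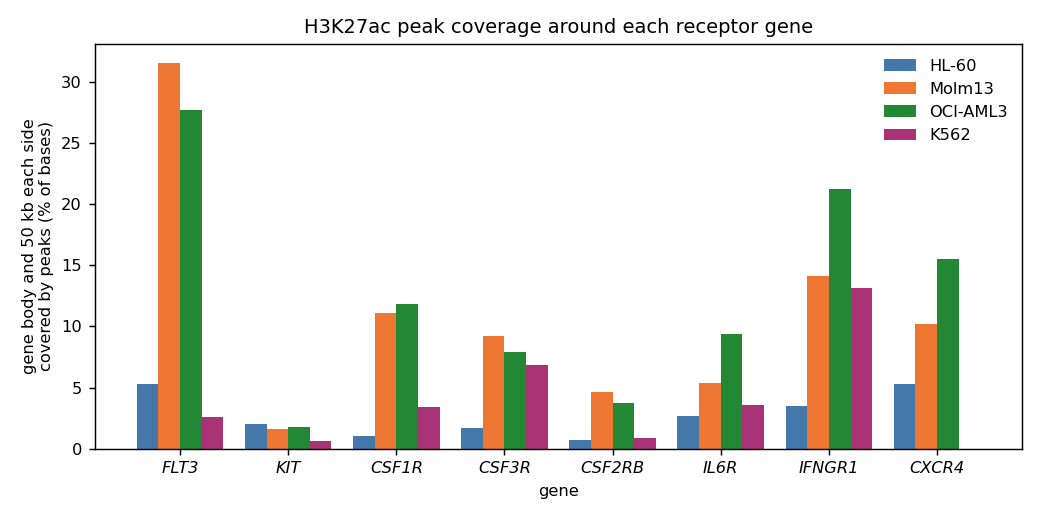
Percent of the bases of each gene body plus 50 kb on each side that H3K27ac peaks cover (vertical axis) for the 8 genes, with 1 bar per line and 1 library per bar. The FLT3 bars of Molm13 and OCI-AML3, 31.5% and 27.7%, are the tallest, and CXCR4 has no bar for K562.

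Merging the peaks of the 4 lists gave 95 separate regions around the receptor genes, out of 74691 in the genome. Of these, 53 were marked in Molm13, 59 in OCI-AML3, 21 in HL-60 and 26 in K562, where 44.8%, 48.5%, 26.2% and 49.1% of all regions were. The 3 AML lines without K562 shared 10 regions, or 10.5% against 3.88% of all regions. FLT3 held 4 of them, CSF2RB and CXCR4 held 2 each, and KIT and IL6R held 1 each. Of the 2 around CSF2RB, 1 was the start of NCF4 rather than of a receptor gene of the set. Molm13 and OCI-AML3 alone shared another 17 (17.9% against 10.1%), of which CSF1R and IFNGR1 held 5 each, 1 of those around CSF1R being a start of PDGFRB. Regions marked in all 4 lines numbered 5 (5.26% against 11.7%), and 2 of these were the starts of PAN3 and MRPS15 rather than of a receptor gene. K562 alone marked 16 regions (16.8% against 28.0%), 4 each around CSF1R, IL6R and IFNGR1 and none around FLT3 or CXCR4. OCI-AML3 alone marked 20 (21.1% against 14.6%), Molm13 alone 16 (against 12.7%) and HL-60 alone 4 (4.21% against 8.53%). The rest were 5 regions in Molm13, OCI-AML3 and K562 (against 4.69% of all regions) and 2 in HL-60 and OCI-AML3 (2.11% against 0.691%). The AML-shared regions thus took a larger share around these genes than in the genome, and the regions of K562 alone a smaller one.

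**Figure D5:**
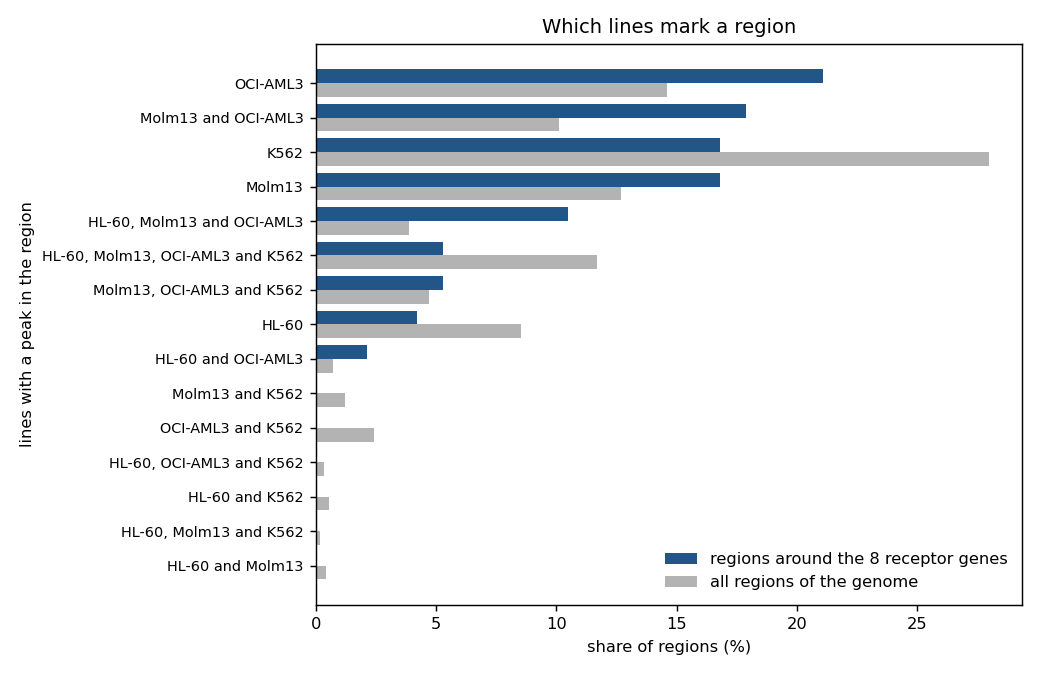
Share of regions (horizontal axis, percent) marked in each combination of lines (vertical axis), for the 95 regions around the receptor genes in blue and the 74691 regions of the genome in grey. The blue bar exceeds the grey one for the 3 AML lines together, 10.5% against 3.88%, and is shorter for K562 alone, 16.8% against 28.0%.

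The promoters were compared over the 250 bases before the canonical TSS, for the 7 of 8 genes that matched an entry of the RefSeq promoter table (all but CSF2RB). CSF1R and CSF3R, the receptors of monocytes and granulocytes, had the lowest observed over expected ratios of CpG pairs, at 0.11 and 0.31. Their GC content was 53.2% and 64.4%. KIT and CXCR4 had the highest ratios, at 0.97 and 0.95, with a GC content of 76.4% and 68.0%. FLT3, IL6R and IFNGR1 lay between, at 0.81, 0.83 and 0.76. Over the 35114 promoters of the table the median ratio was 0.56 and the median GC content 58.0%. KIT, unmarked at its canonical TSS in every line, and CXCR4, marked in the 3 AML lines, were thus close in this ratio.

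A GAGGAA match on either strand was present in 6 of the 7 promoters, the exception being KIT, and in 23.6% of all promoters. In CSF3R it lay at -111 to -106, in bases that longer transcripts include in their first exon and that are therefore not printed. GC boxes (GGGCGG, 42.6% of all promoters) were found in KIT, IFNGR1 and CXCR4. TGTGGT (3855 of the 35114 promoters) was found in CSF1R and the C/EBP letters TTGCNNAA (9.1%) in IFNGR1. AGATAA, read by GATA factors (9.2%), TGANTCA of AP-1 (6.6%) and TTCNNNGAA of STAT factors (6.6%) had no match in these windows. All 7 motifs were searched on both strands. GAGGAA was present both where the AML lines alone were marked and at IFNGR1, which was marked in all lines. A match describes the letters only, and no binding was measured.

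Ligand genes of these receptors were mostly unmarked. Of 11, a TSS peak was found for 2 in Molm13, 2 in OCI-AML3, 2 in HL-60 and 5 in K562, below the shares of all genes (54.0%, 57.7%, 44.7% and 56.0%) in each line. CSF1 and IL34, the ligands of CSF1R, and IL6, the ligand of IL6R, were marked in K562 alone, at percentiles 58.8, 30.6 and 65.6, and the IL6 peaks also took in a start of STEAP1B. FLT3LG, the FLT3 ligand, was marked in Molm13, OCI-AML3 and K562, at percentiles 77.8, 47.8 and 15.1. KITLG, the KIT ligand, was marked in HL-60 alone, at 38.7. None of the lists had a TSS peak at 5 others, CSF3, CSF2, IL3, IFNG and CXCL12, and the peak counted for IL5 in each line was shared with RAD50.

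Partner and related receptors numbered 12, of which 8 had a TSS peak in Molm13, 9 in OCI-AML3, 7 in HL-60 and 5 in K562, beside 54.0%, 57.7%, 44.7% and 56.0% of all protein-coding genes. The counts were above those shares in the AML lines and below in K562, over only 12 genes. The alpha chains that pair with CSF2RB, CSF2RA for GM-CSF and IL3RA for interleukin 3, were marked in the 3 AML lines and not in K562, as was CSF2RB itself. CSF2RA stood at percentiles 95.3 in Molm13, 91.5 in OCI-AML3 and 68.1 in HL-60, and IL3RA at 78.4, 81.6 and 53.4. IL6ST, through which IL6R signals, differed from IL6R, with a TSS peak in HL-60, OCI-AML3 and K562 and none in Molm13. IFNGR2 was marked in all lines, as was IFNGR1. IL4R was marked in Molm13 and OCI-AML3, as was PDGFRB at the start described with CSF1R. The erythropoietin receptor EPOR and IL5RA had a TSS peak in every line, shared with SWSAP1 and TRNT1.

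Most signal transducers downstream of these receptors were marked in every line. Of 18 genes, 14 had a TSS peak in HL-60 (44.7% of all genes) and 17 in each of Molm13, OCI-AML3 and K562 (54.0%, 57.7% and 56.0%), and 14 were marked in all 4 lines, where 40.5% of all protein-coding genes were. The kinases JAK1, JAK2 and TYK2 were among the 14. STAT5A and STAT5B, adjoining genes that share a peak, lacked one in HL-60 only. JAK3 was marked in K562 alone, at percentile 6.62.

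To see which genes had the most similar pattern, the percentile of the strongest TSS peak in the 4 lists was compared with every other protein-coding gene by Euclidean distance in percentile points, with 0 for no peak. The closest to FLT3 were N4BP2L1, at a distance of 1.39, and CSF2RA at 3.25. CSF2RB was nearest to DGKG (3.36) and VAV3 (4.23), and CXCR4 to TTC39C (4.40) and ABRACL (4.66). The nearest to IL6R were SLA (6.17) and AK5 (8.31). For CSF1R they were SCUBE1 (3.13) and PEPD (3.50), for CSF3R CNIH4 (7.73) and ZNF22 (8.34), for IFNGR1 CTSS (2.68) and TOMM40 (3.23), and for KIT ZNF831 (0.356) and SH3PXD2A (0.490). These likenesses rest on 4 values per gene, and for KIT all but the HL-60 value were 0. The same combination of marked lines was seen at 120 other protein-coding genes for KIT, 443 for FLT3 and 8105 for IFNGR1. CSF2RA was the only one of the 16 neighbours that belonged to the receptor, ligand and transducer lists.

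The dCas9 list, from K562 cells carrying sgRNAs against the LTR2B repeat family, held 395 peaks, none of which lay in the window of a receptor gene. The nearest was 96.2 kb from the CSF3R TSS.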

How the data were processed

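Per the labels and the study's methods, the authors trimmed reads with Trim Galore (0.4.5 in the submitters' processing notes), aligned them to hg38 with Bowtie2 (2.3.4 in those notes), kept uniquely mapped reads and called peaks in each library with MACS2 (2.1.1) at q 0.05, in broad mode for histone marks. The control library is not given in the sources used here. The deposited broad lists give a score (not used), a ratio (fold enrichment, averaged along the peak) and −log10 p and q values. The largest q-value was 0.0995, and 5.46% to 15.0% of peaks had a q-value above 0.05. The deposited dCas9 list also gives a summit position.

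Samples were grouped by their titles. Peaks were intersected with GENCODE version 44 genes (an overlap of at least 1 bp), using Python 3.11.15, pandas 2.3.3 and NumPy 2.4.6. Intersections were checked against bedtools 2.31.1 and on simulated peaks. Percentiles were ranks within a list. Read depth is unknown, so no intervals are given, and single libraries allow no test. The receptor genes, gene lists and motifs were chosen with earlier results of these data known. All 8 genes are named, with pathway genes whose TSS marking differed between lines, the 2 nearest genes by percentile and genes starting in a window; other listed genes named beside a count were named after their values were seen. Alternatives are given in the closing section, and 0 columns of per-sample values were left unmapped. Samples with other antibodies, inputs and LTR2B sgRNA H3K27ac samples were not analysed here. Some listed genes and 1 region are not reported here.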

Additional observations from a re-analysis of the deposited data

How the results depend on the processing

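Of 82 alternative values, 54 stayed within 1.5 times the value given above and 28 moved further. Limiting peaks to q-values below 0.001 left 13, 27, 33 and 9 peaks around the genes in HL-60, Molm13, OCI-AML3 and K562, and 20224 bp covered in HL-60 and 27571 bp in K562. It left 1 gene marked at its TSS in K562, IFNGR1, and 4 in HL-60, with the 7 in Molm13 and in OCI-AML3 unaltered. In OCI-AML3, however, CSF1R stayed marked only through the peak at 32.0 to 36.4 kb, and its peak over the canonical TSS was lost. The same limit left 8 regions marked in K562, 17 (of 27) marked in Molm13 and OCI-AML3 without K562, and 3 marked in all lines. Requiring 50% of a region to be covered left 0 regions marked in all lines. Cutting every list to the 20772 peaks with the lowest q-values left 13 peaks in K562, 35 in Molm13 and 33 in OCI-AML3. The same genes stayed marked at their TSS, CSF1R in OCI-AML3 again only through the peak at 32.0 to 36.4 kb. No cut by fold enrichment is given. By fold enrichment the strongest TSS peaks of CSF3R in K562 and CSF1R in OCI-AML3 ranked low, at percentiles 27.4 and 37.8. Counting gene bodies only gave 14, 26, 26 and 7 peaks and 16177, 65629, 61930 and 8271 bp in the same order of lines. Windows of 20 kb moved K562 to 15 peaks and 25407 bp. Windows of 100 kb moved HL-60 to 37 peaks and 54920 bp, and K562 to 46 peaks and 85216 bp. Where the construction of an alternative (fewer peaks, another window) does not account for a change, the cause was not tested. Counting canonical TSSs only removed KIT from HL-60 and altered no other TSS call. No paired analysis was possible because the groups compared have 1 library each. The lists give no reads, so depth behind a missing peak is unknown.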
